A study of Mus musculus with 2 samples.

Results

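Gmpr and 9 further genes of purine nucleotide conversion (Gmpr2, Gmps, Impdh1, Impdh2, Hprt, Ampd2, Ampd3, Adsl and Adk) were followed in interscapular brown fat, a heat-producing tissue, of male C57BL/6N mice aged 20 weeks. They were chosen by name, with the read counts of these libraries already known, so their ratios are a description. All 10 were found, among 15523 genes with at least 1 read. The cold library pooled RNA of 3 singly housed animals after 24 h at 4 °C, and the control library carries the treatment label ctrl. The general housing temperature was 22 to 24 °C. The labels give neither the number of control animals nor their caging. The treatment text of the control sample repeats the cold exposure, against its label, and the extraction text of both samples names another fat depot.

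Native poly(A)+ RNA was read on a nanopore from the 3' end, 1 read per molecule, without amplification. The cold library held 1215617 reads and the control library 1698124 reads. With 1 pooled library per condition replicate spread is unknown and nothing was tested between conditions. Parentheses after a ratio, level or share hold its 95% counting interval, which compares 2 libraries and covers counting error alone. Levels are reads per 1000000 (RPM), with library sizes scaled by trimmed means, and ratios are cold over control. In bulk tissue, more cells of a type and more RNA per cell cannot be told apart. Each of 12 genes listed as markers of brown adipocytes was read in both libraries. Ucp1 had 14526 reads in the cold and 14860 in the control library, at 11227 and 9314 RPM, a ratio of 1.21 (1.18 to 1.23). The 12 markers summed to a ratio of 1.19 (1.18 to 1.21). Fabp4 held 20787 of their 44676 reads in the cold and 20610 of 46271 in the control library, so the sum rests largely on Fabp4 and Ucp1. Intervals lay above 1 for 7 and below 1 for 2 of the 12, where 11.3% of all genes lay above and 11.3% below. The ratios of the 12 ran from 0.656 for Adipoq to 6.03 for Ppargc1a.

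Purine nucleotides bind the uncoupling protein of brown fat, UCP1, and inhibit its proton transport, and fatty acids overcome this. Inside the cell, inosine monophosphate (IMP) is the hub from which the adenine and guanine nucleotides are made. IMP dehydrogenases and GMP synthetase lead from IMP to GMP, GMP reductases lead back from GMP to IMP with NADPH as reductant, and AMP deaminases and adenylosuccinate lyase belong to the cycle between AMP and IMP. A GMP reductase transcript that increases in brown fat on cold exposure has been described in the rat.

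GMP reductases and IMP dehydrogenases are one enzyme family that acts in opposite directions on the guanine arm of this hub. The coding sequence around their catalytic cysteine is shown because it lets the 4 genes be compared base by base at the active site. Each line gives 39 bases of the mouse transcript on GRCm38, 5' to 3', with the codon of that cysteine in capitals (codon 186 of the GMP reductases and codon 331 of the IMP dehydrogenases).

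Gmpr: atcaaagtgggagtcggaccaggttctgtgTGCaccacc
Gmpr2: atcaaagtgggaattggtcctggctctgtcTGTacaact
Impdh1: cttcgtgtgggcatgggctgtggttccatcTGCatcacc
Impdh2: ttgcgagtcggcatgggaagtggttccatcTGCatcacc

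The stretch lies on chromosome 13 for Gmpr (45529768 to 45532310, plus strand) and on chromosome 14 for Gmpr2 (55676815 to 55676944, plus strand), in each case across an intron. That of Impdh1 is on chromosome 6 (29204286 to 29204324, minus strand) and that of Impdh2 on chromosome 9 (108563646 to 108563684, plus strand), each within an exon. Gmpr and Gmpr2 differed at 9 of these 39 bases and Impdh1 and Impdh2 at 6, whereas Gmpr and Impdh1 differed at 16. Over the aligned coding sequence, Gmpr and Gmpr2 were identical at 70.4% of 1033 bases and Impdh1 and Impdh2 at 75.3% of 1541 bases. Gmpr and Impdh1 were identical at 67.1% of 1005 aligned bases, near the value of Gmpr and Gmpr2. Their most abundant transcripts had no word of 31 bases in common in any of these pairs. Across the GENCODE M21 transcripts, the main transcript of Gmpr shared no such word with any other gene. Impdh2 shared 77.3% of its words with the pseudogene Impdh2-ps, which had no read in either library, and the other 9 genes shared at most 4.02% with any single gene.

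Gmpr, which reduces GMP to IMP, had 2769 reads in the cold library, against 159 reads in the control library. It was the 36th most read gene of the cold library and the 943rd of the control library, and took 0.228% of cold reads and 0.00936% of control reads. On the scaled level this was 2140 RPM in the cold and 99.7 in the control library, a ratio of 21.5 (18.3 to 25.4). Among 2672 genes with at least 100 summed reads this was rank 2 from the top. By the distance in log2 ratio over the 2 libraries, the genes with at least 100 summed reads nearest to Gmpr (log2 ratio 4.42) were Ckb, a creatine kinase (4.76), Slc25a34, a mitochondrial carrier (3.91), Nnmt, which methylates nicotinamide (3.49), Cdkn1a, a cell cycle inhibitor (3.27), and Atp1b1, a sodium pump subunit (3.03).

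Gmpr is also transcribed in skeletal muscle, and muscle markers stood higher in the same library. Each of 20 muscle markers was read in both libraries, and their sum was 2579 reads in the cold (0.212% of reads, 0.204 to 0.220) and 784 in the control library (0.0462%, 0.0430 to 0.0495), a ratio of 4.06 (3.74 to 4.40). All 19 markers with at least 20 summed reads had an interval above 1, with ratios from 1.46 for Myl1 to 17.3 for Myh7. The part of muscle RNA in the ratio of Gmpr was not tested.

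**Figure D1:**
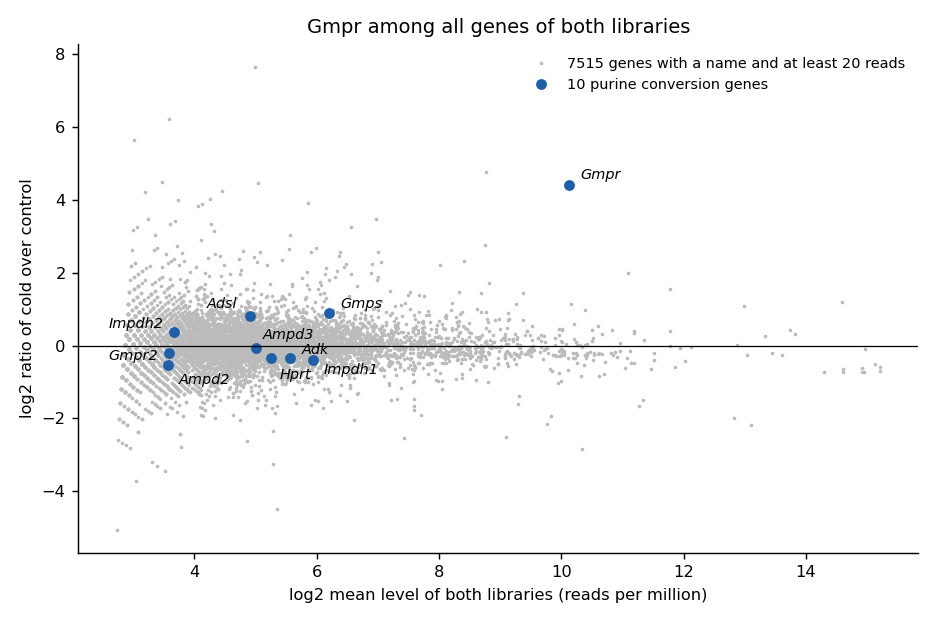
Each grey point is 1 of 7515 genes with a name and at least 20 summed reads, by its mean level in both libraries on the x axis (log2 RPM) and its log2 ratio of cold over control on the y axis; blue points are the 10 purine conversion genes. Gmpr stands at a log2 ratio of 4.42 and the other 9 lie between -0.55 and 0.88.

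Gmpr lies on GRCm38 chromosome 13 (45507444 to 45553800, plus strand), and its reads came almost wholly from the full-length coding form. This form, Gmpr-201, has 9 exons and 1580 bases and received 2752 of 2769 reads in the cold library (99.4%, 99.0 to 99.6), against 159 of 159 in the control library. Gmpr-202, which begins at another first exon at 45513840, had 3 reads in the cold library and none in the control library. Gmpr-204, a non-coding form of 2 exons, had 14 reads in the cold library (0.506%, 0.277 to 0.847) and none in the control library. A count of 0 among 159 control reads, read as at most 3, allows a share of up to 1.89%, and its exact interval reaches 2.29%. A difference in this share was therefore not detectable at this depth.

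The 3' neighbourhood of Gmpr is shared with another gene. Gmpr-204 overlaps the last 230 bases of Gmpr-201, none of them coding, and its second exon starts at 45553426. All 375 bases of that exon lie inside exons of Atxn1, which encodes ataxin-1, on the opposite strand. No exon base of Gmpr-201 does. Atxn1 had 56 reads in the cold library and 16 in the control library, a ratio of 4.32 (2.44 to 8.06), and was singled out after its values were seen. Whether counting used strand is not stated in the labels, so the split of reads between Gmpr-204 and Atxn1 is uncertain.

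The bases before the start of Gmpr are shown because the largest difference among the 10 genes was in this transcript. They are from the RefSeq promoter table on GRCm38.p6, chr13:45507194-45507443, plus strand, 250 bases ending at the last base before the start, with the motifs found by search in capitals.

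Gmpr promoter: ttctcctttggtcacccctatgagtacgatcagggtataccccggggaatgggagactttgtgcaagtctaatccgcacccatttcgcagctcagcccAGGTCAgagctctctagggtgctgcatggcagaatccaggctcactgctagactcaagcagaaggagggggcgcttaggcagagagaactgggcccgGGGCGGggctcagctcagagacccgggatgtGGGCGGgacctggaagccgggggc

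Motifs were searched on both strands by their exact letters. The nuclear receptor hexamer AGGTCA matched once, beginning at -152 (the last base before the start is -1), and 14.0% of 32851 promoter windows of this length hold it. The GC box GGGCGG matched at -55 and -24, a motif held by 32.7% of windows. The short cAMP response motif TGACG (17.8% of windows), the E-box CACGTG (6.02%), TATAAA (12.4%) and CCAAT (33.8%) were not among the letters of this window, nor were the full cAMP response element (1.55%) and the site of estrogen-related receptors (0.387%). None of the matches overlapped. The window had a GC content of 61.2% and 10 CG pairs, where the medians over all windows were 52.4% and 6. These are matches of letters and not shown to be sites.

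Gmpr2, which encodes the second GMP reductase, had 14 reads in the cold library and 20 reads in the control library, at 10.8 and 12.5 RPM. Its ratio was 0.863 (0.403 to 1.80). At 34 summed reads, a ratio would have had to reach 2.26 before its interval left out 1. All of its reads were assigned to 1 coding form of 1993 bases. The gene lies on chromosome 14 (55671941 to 55679200, plus strand), where Nedd8 and Tinf2 overlap it on the opposite strand. Of the reads of both reductases, Gmpr made up 99.5% (99.2 to 99.7) in the cold library and 88.8% (83.3 to 93.0) in the control library, a difference of 10.7 percentage points (6.83 to 16.1). This share does not depend on how the libraries were scaled.

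Impdh1 and Impdh2, which oxidise IMP to xanthosine monophosphate on the way to GMP, had ratios whose intervals included 1. Impdh1 had 68 reads in the cold library and 110 in the control library, at 52.6 and 68.9 RPM and a ratio of 0.762 (0.555 to 1.04). Impdh2 had 18 reads in the cold and 17 in the control library, a ratio of 1.31 (0.635 to 2.70). Impdh1 accounted for 79.1% of reads of the pair in the cold (69.0 to 87.1) and 86.6% in the control library (79.4 to 92.0), a difference of -7.54 points whose interval ran from -18.4 to 2.55. Impdh1 lies on chromosome 6 (29200434 to 29216364, minus strand) and Impdh2 on chromosome 9 (108560286 to 108565584, plus strand), overlapped on the opposite strand by Ndufaf3.

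Gmps, the synthetase that aminates xanthosine monophosphate to GMP, was higher in the cold library by counting. It had 123 reads in the cold library and 82 in the control library, at 95.1 and 51.4 RPM, a ratio of 1.85 (1.39 to 2.48). Among the genes with at least 100 summed reads, 95.2% had a lower ratio. Over the reads of Gmps, Impdh1 and Impdh2, a group formed after the values were seen, Gmps made up 58.9% in the cold (51.9 to 65.6) and 39.2% in the control library (32.6 to 46.2), and these 3 genes together had 209 reads in each library. Its transcript, on chromosome 3 (63976106 to 64022579, plus strand), is 8105 bases long with a coding part of 2079 bases, so a read from the 3' end may stop before the coding part.

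Set against each other, the reductases took most of the guanine-branch reads in the cold library. Gmpr and Gmpr2 together had 2783 of 2992 reads over the reductases, dehydrogenases and Gmps in the cold library (93.0%, 92.0 to 93.9), and 179 of 388 in the control library (46.1%, 41.1 to 51.2). The difference was 46.9 points (41.8 to 51.9). The choice of these groups was made with the Gmpr counts known, so the difference restates the Gmpr value on a scale free of library scaling. These are shares of transcripts read and say nothing of enzyme activity or nucleotide levels, which were not measured.

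**Figure D2:**
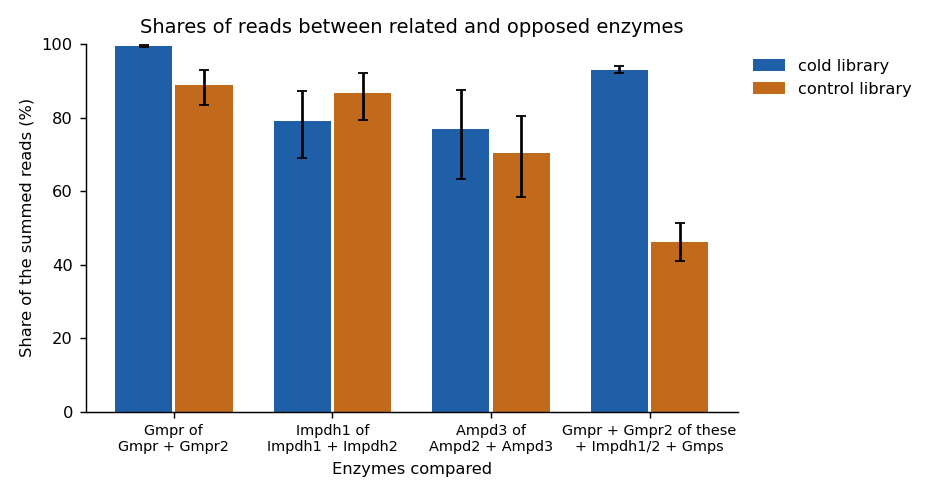
Bars give the share of summed reads, in percent, for 4 sets of related or opposed enzymes, cold library in blue and control library in orange, with exact binomial 95% intervals. The reductase share of the guanine branch is 93.0% in the cold and 46.1% in the control library, and the intervals overlap for the Impdh and Ampd pairs.

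The cycle between AMP and IMP had a lyase that was higher in the cold library by counting and deaminases for which no difference was detectable. Ampd2 had 12 reads in the cold and 22 in the control library, a ratio of 0.673 (0.303 to 1.42). Ampd3 had 40 and 52 reads in the cold and control libraries, a ratio of 0.949 (0.612 to 1.46). Both encode AMP deaminases, which turn AMP into IMP. Ampd3 made up 76.9% of the pair in the cold (63.2 to 87.5) and 70.3% in the control library (58.5 to 80.3). The log2 ratio of Ampd3, -0.07, was 0.11 with total counts, which put the median of all genes at 0.18. Ampd1, the deaminase of skeletal muscle, named after its counts were seen, had 2 reads in the cold and 3 in the control library. Ampd2 lies on chromosome 3 (108074062 to 108086651, minus strand) and Ampd3 on chromosome 7 (110768206 to 110812405, plus strand), overlapped on the opposite strand by Rnf141.

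Adsl, the lyase that frees AMP from adenylosuccinate and also acts in making IMP from scratch, had 49 reads in the cold and 34 in the control library. Its level was 37.9 RPM in the cold and 21.3 in the control library, a ratio of 1.78 (1.12 to 2.84). It lies on chromosome 15 (80948490 to 80970946, plus strand). The step before it on the way from IMP to AMP is taken by 2 synthetases. Adssl1, the isozyme typical of muscle, had 88 reads in the cold and 47 in the control library, a ratio of 2.31 (1.60 to 3.36), while Adss, the more widely expressed one, had 28 and 32 reads in the cold and control libraries, a ratio of 1.08 (0.626 to 1.85). The muscle markers given above were higher as well, and their part in the ratio of Adssl1 was not tested.

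The salvage enzymes Hprt and Adk were a little lower in the cold library, within counting error. Hprt, which joins hypoxanthine or guanine to ribose phosphate to give IMP or GMP, had 43 reads in the cold and 67 in the control library, a ratio of 0.791 (0.527 to 1.18). Adk, which phosphorylates adenosine to AMP, had 54 reads in the cold and 84 in the control library, a ratio of 0.793 (0.552 to 1.13). With these depths, Hprt would have had to be 1.54-fold lower and Adk 1.47-fold lower for an interval below 1. Hprt lies on chromosome X (52988137 to 53021659, plus strand) and Adk on chromosome 14 (21052574 to 21448569, plus strand).

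**Figure D3:**
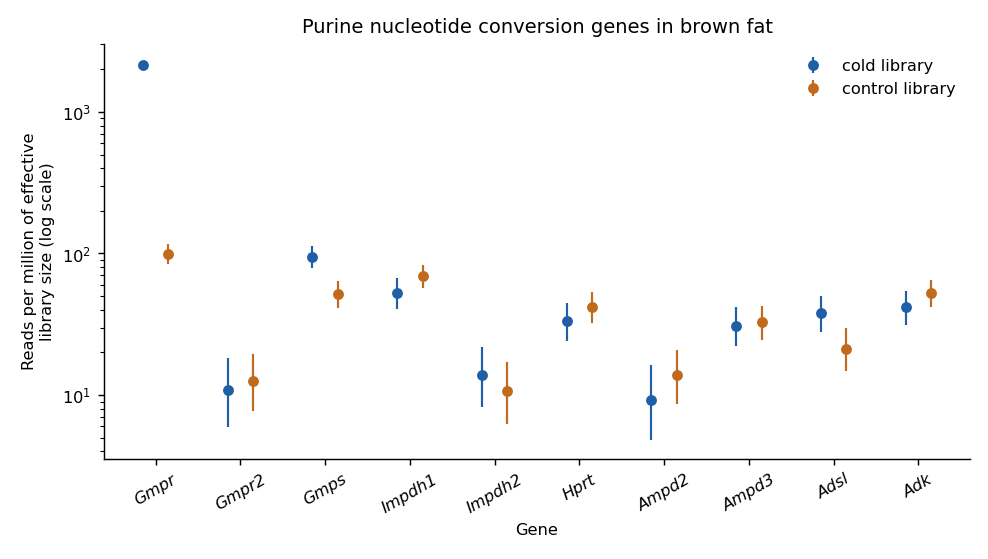
Points give RPM (log axis) for each gene, cold library in blue to the left and control library in orange to the right, with exact Poisson 95% intervals from the counts. The intervals are clear of each other for Gmpr, at 2140 in the cold and 99.7 in the control library, and for Gmps, at 95.1 and 51.4.

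All 10 genes reached 20 summed reads, the minimum set for calling a difference of at least 2-fold with an interval that leaves out 1. Gmpr was called higher in the cold library and none was called lower. Over all 7529 entries with at least 20 reads, transcripts matched to no gene included, 4.20% were called higher and 4.08% lower, 8.27% in either direction. Intervals lay above 1 for Gmpr, Gmps and Adsl and below 1 for none, where 11.3% of all genes lay above and 11.3% below. As the genes were chosen with these values known, nothing is read from these counts. Without Gmpr, the median log2 ratio of the 9 others was -0.20, with the median of all genes at 0.00. It was -0.02 with total counts, which put the median of all genes at 0.18. From the most abundant transcript alone, for which 8 of the 9 had enough reads, it was 0.10. Their summed reads were 421 in the cold and 488 in the control library, a ratio of 1.06 (0.932 to 1.21). Among all reads of the 10 genes, a sum formed after the values were seen, Gmpr took 86.8% in the cold (85.6 to 88.0) and 24.6% in the control library (21.3 to 28.1).

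Levels were also ordered per kilobase of each gene's most abundant transcript, although a nanopore read stands for a molecule whatever its length. Gmpr came first in both libraries, at 1355 RPM per kilobase in the cold (1304 to 1406) and 63.1 in the control library (53.7 to 73.4), clear of the next gene in each. Hprt, Adk and Impdh1 followed in that order in both libraries, from 25.8 to 21.6 in the cold and from 32.6 to 28.3 in the control library, with intervals that overlapped between neighbours. Every later pair of neighbours overlapped too, beyond a step from Impdh1 to Gmps in the cold library (21.6 and 11.7) and from Impdh1 to Ampd3 in the control library (28.3 and 7.96). Ampd2 was lowest in both, at 2.16 in the cold and 3.22 in the control library. Without division by length, Gmps ranked 2 in the cold library and 4 in the control library.

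Transcript forms of these genes were compared as shares of a gene's reads. Of 70 annotated transcripts of the 10 genes, 28 had a read, 26 in the cold and 22 in the control library. For the 7 genes where both libraries reached 20 reads, 21 transcripts had a read. Gmps and Hprt have 1 annotated transcript each, so their shares could not differ between libraries. The interval of the difference left out 0 for 3 of the 21, with no correction for the number compared. These 3 were a form of Impdh1 and the only forms of Adsl with a read. The Adsl differences mirror each other and are the same comparison.

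Adk has a pair of coding forms that start at different first exons and encode a longer, nuclear and a shorter, cytoplasmic adenosine kinase. Their coding starts are shown because they are where these forms differ. Bases of the first exon are in capitals and the 30 bases that follow in the shared second exon in lower case (GRCm38 chromosome 14, plus strand, starting at 21052639 for Adk-201 and at 21076308 for Adk-207).

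Adk-201: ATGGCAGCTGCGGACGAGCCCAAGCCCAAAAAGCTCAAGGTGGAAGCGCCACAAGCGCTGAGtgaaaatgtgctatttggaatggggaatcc
Adk-207: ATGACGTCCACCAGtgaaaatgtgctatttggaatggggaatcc

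Adk-201, the longer form, contributes 62 coding bases from its first exon, and Adk-207 contributes 14. Adk-201 had 29 reads in the cold and 43 in the control library, and Adk-207 had 19 and 34 reads in the cold and control libraries. Of the reads of these forms, Adk-201 made up 60.4% in the cold (45.3 to 74.2) and 55.8% in the control library (44.1 to 67.2), a difference of 4.57 points (-13.0 to 21.3). Read from the 3' end, the forms are alike over 1648 bases, so only a read longer than that tells them apart.

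Impdh1 had 6 transcripts with reads in each library. The most abundant form, which starts at a downstream first exon (29212297), had 29 of 68 reads in the cold library (42.6%, 30.7 to 55.2) and 30 of 110 in the control library (27.3%, 19.2 to 36.6), a difference of 15.4 points (1.13 to 29.4). Its reads alone gave a log2 ratio of 0.24, against -0.39 for the whole gene. The 3 forms that start upstream, between 29216331 and 29216364, held 30 of the 63 reads of near full-length forms in the cold library (47.6%) and 63 of 105 in the control library (60.0%), a grouping made after the values were seen. That difference, -12.4 points, had an interval from -27.2 to 3.05. The downstream form and these are alike over 2208 to 2309 bases from the 3' end, close to their full length of 2437 to 2600 bases.

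Adsl-205, annotated for nonsense-mediated decay, had 1 of 49 Adsl reads in the cold library (2.04%, 0.0517 to 10.9) and 5 of 34 in the control library (14.7%, 4.95 to 31.1). The difference was -12.7 points (-28.2 to -0.705). The coding form Adsl-201 held the rest, with 48 reads in the cold and 29 in the control library. The most read form of Ampd2 was 1 of 4288 bases annotated with a retained intron, at 6 of 12 reads in the cold and 12 of 22 in the control library. Ampd3 was read almost only as its coding form of 4094 bases, with 40 of 40 reads in the cold and 50 of 52 in the control library.

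**Figure D4:**
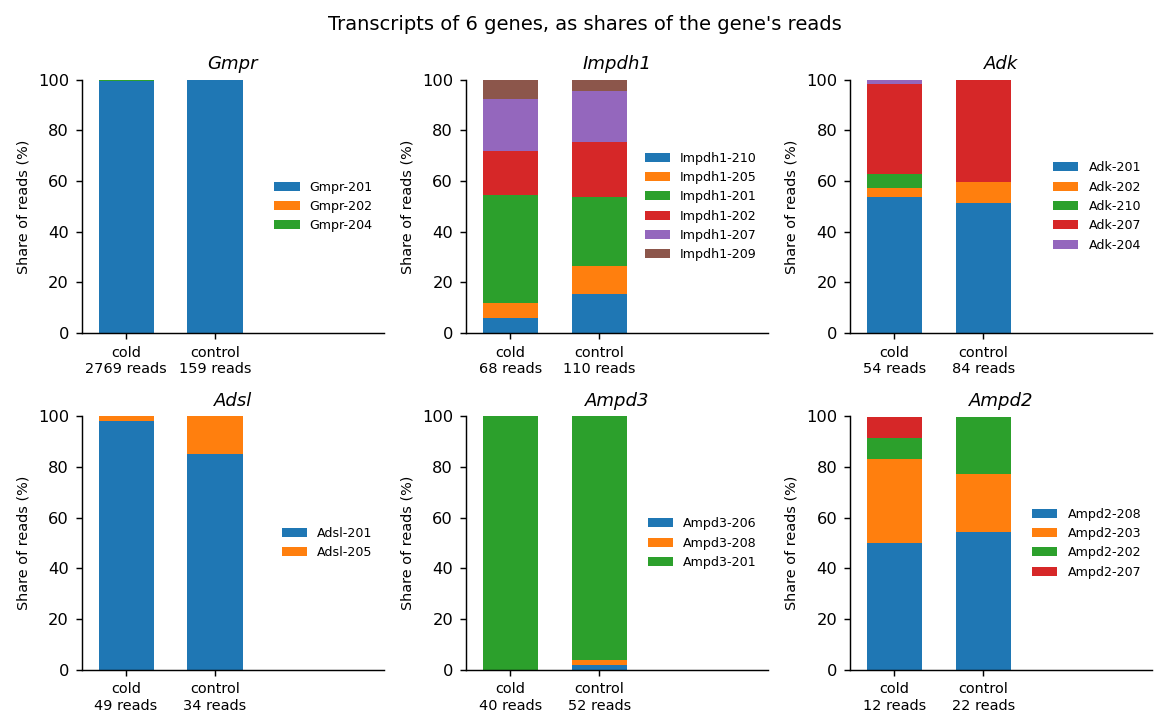
Stacked bars give the share of a gene's reads, in percent, assigned to each transcript with a read, with the cold library on the left and the control library on the right of each panel and the gene's reads below. Gmpr-201 fills nearly the whole bar of Gmpr in both libraries, while Impdh1 and Adk are split over several forms.

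A wider list of 62 genes of purine metabolism, chosen with earlier results of these data known, had 52 genes with a read and 32 with at least 20 summed reads. Of these 32, Adssl1 and Aprt were called at least 2-fold higher in the cold library and none at least 2-fold lower, where 4.20% of all entries were called higher and 4.08% lower. Intervals lay above 1 for 9 and below 1 for 4 of the 32, where 11.3% of all entries lay above and 11.3% below. These counts moved with the scaling, to 6 above and 4 below with DESeq2 size factors and to 10 above and 0 below with total counts. The median log2 ratio was 0.16, with that of all genes at 0.00. Aprt, which salvages adenine to AMP, had 22 reads in the cold and 13 in the control library, a ratio of 2.09 (1.01 to 4.51). With DESeq2 size factors its interval included 1.

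None of the 7 measured genes that supply phosphoribosyl pyrophosphate or make IMP from scratch had an interval clear of 1. Their log2 ratios had a median of -0.06, with that of all genes at 0.00. With total counts these medians were 0.12 and 0.18. Paics, which carries out a pair of middle steps, had 96 reads in the cold and 131 in the control library, a ratio of 0.904 (0.687 to 1.18). Pnp, which splits purine nucleosides, had 131 and 155 reads in the cold and control libraries, a ratio of 1.04 (0.820 to 1.32). None of the 6 nucleotidases and sanitising enzymes and neither of the 2 measured breakdown enzymes was clear of 1, and Xdh, which makes urate, had 33 reads in the cold and 37 in the control library. Uox, Urah, Urad and Allc, of the steps after urate, had no read, and are named after this was seen.

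Nucleotide kinases were mixed. Guk1, which phosphorylates GMP to GDP and so draws on the substrate of Gmpr, had 59 reads in the cold and 105 in the control library, a ratio of 0.693 (0.495 to 0.962). Ak3, a mitochondrial adenylate kinase, had a ratio of 0.829 (0.711 to 0.965), and Nme2, a nucleoside diphosphate kinase, 0.859 (0.752 to 0.981). With total counts, which shift the median log2 ratio of all genes to 0.18, the intervals of Guk1, Ak3 and Nme2 included 1. Ak1, an adenylate kinase abundant in muscle, was at 1.52 (1.08 to 2.15), Ak6 had an interval from 1.02 to 2.23 and Nme1 was at 1.25 (1.01 to 1.55). With DESeq2 size factors the intervals of Ak6 and Nme1 included 1. The part of muscle RNA in the ratio of Ak1 was not tested.

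Of 9 listed transporters, 4 had at least 20 summed reads, and the intervals of these 4 lay above 1, as did 11.3% of all entries. Another 4 had fewer reads, with ratios on both sides of 1 and intervals that included it, and 1 had no read. Slc29a1, which carries nucleosides across the plasma membrane, had 169 reads in the cold and 124 in the control library, a ratio of 1.68 (1.33 to 2.14). Slc25a42, a mitochondrial carrier of coenzyme A and adenine nucleotides, had 209 and 149 reads in the cold and control libraries, a ratio of 1.73 (1.40 to 2.15). The ADP/ATP carriers Slc25a4 and Slc25a5 were at 1.21 (1.09 to 1.35) and 1.22 (1.11 to 1.33). Adora1, the adenosine receptor with enough reads, was at 1.37 (0.936 to 2.00).

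Beside the muscle markers, those of other cells that a piece of brown fat can hold were counted. Macrophage markers summed to 136 reads in the cold and 121 in the control library, a ratio of 1.39 (1.08 to 1.79). Of the 4 with at least 20 summed reads, Lyz2 at 1.79 (1.11 to 2.93) and C1qa at 1.91 (1.06 to 3.54) lay above 1. The intervals of C1qb, at 1.60 (0.809 to 3.20), and C1qc, at 0.763 (0.351 to 1.60), included 1. Adgre1 had 0 reads in the cold and 2 in the control library. C1qb, C1qc and Adgre1 are named after their values were seen. Endothelial markers summed to 798 and 761 reads in the cold and control libraries, a ratio of 1.29 (1.17 to 1.43). Of these 10 markers, 3 had an interval above 1 and none below, with ratios from 0.632 for Emcn to 1.56 for Eng. Erythrocyte markers summed to 2746 reads in the cold (0.226% of reads, 0.218 to 0.234) and 3868 in the control library (0.228%, 0.221 to 0.235). The scaled ratio was 0.875 (0.833 to 0.920), a difference that the shares of all reads did not show. On this scale, 3 of 4 with at least 20 summed reads had an interval below 1, and Hba-a1 was at 1.13 (0.880 to 1.46). Alas2 had 13 reads in the cold and 5 in the control library, a ratio of 3.21 (1.07 to 11.5). Slc4a1 had 0 reads in the cold and 1 in the control library. Alas2 and Slc4a1 are named after their values were seen. White adipocyte markers summed to 406 and 194 reads in the cold and control libraries, a ratio of 2.58 (2.17 to 3.08), with 3 of 4 measured genes called higher and Lep lower. Of 6 proliferation markers, Pcna alone reached 20 summed reads, and the list summed to 38 reads in the cold and 37 in the control library.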

How the data were processed

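The authors deposited whole-number read counts per transcript, not normalized, with transcripts at 0 not listed, per the file headers and the values. The submitters' processing notes name minimap2 and GRCm38. For the aligner version, the annotation release, strand use and reads that match several transcripts, the handling is not given in the sources used here. Transcripts were matched by identifier without version to GENCODE M21 (no gene for 0.0652% of cold and 0.0571% of control reads) and summed to genes. Library sizes were scaled with edgeR 4.0.16 TMM factors (1.06 for cold, 0.940 for control). Each ratio has a 95% interval (exact Clopper-Pearson, cold reads among both libraries' reads), and log2 ratios a prior of 0.5 reads. Shares have exact binomial intervals, and their differences Newcombe intervals. A count of 0 was read as at most 3 reads. A call needed 20 summed reads, a fold of 2 or more and an interval without 1. The ratio step was tested on simulated data. The genes named were the 10, list genes that were called or had at least 50 summed reads, and the 5 nearest to Gmpr in log2 ratio among those with at least 100; others are marked as named after their values were seen. Some list genes are counted but not reported here by name. The 10 genes and lists were chosen with earlier results of these data known. Alternatives were DESeq2 1.42.0 size factors, total counts with and without mitochondrially encoded genes, single or coding transcripts, other read minimums, 1.5-fold and a prior of 2 reads.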

Additional observations from a re-analysis of the deposited data

How the results depend on the processing

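The log2 ratio of Gmpr was 4.42 and ran from 4.39 to 4.60 over the alternatives tried for it. Of the alternative values, 210 kept within their counting interval or within 1.5 times a count, 26 moved, and no called value changed sign. The count of the 10 genes called higher was 1, beside 316 of all 7529 entries. It was 3 with total counts (Gmps and Adsl added) or a fold of at least 1.5, beside 522 and 607 of 7529 entries. It was 2 with total counts without mitochondrially encoded genes (Gmps added), beside 450 of 7529. With the most abundant transcript alone or with protein coding transcripts it was 2 of 9 (Adsl added), beside 301 of 6449 and 295 of 6871 entries. Impdh1, which was not called, had a log2 ratio of 0.24 from its most abundant transcript, against -0.39. Over all genes, 316 higher and 307 lower became 522 and 189 with total counts. Higher calls then made up 73.4% of the called genes, against 50.7%. The counts were 607 and 560 at 1.5-fold, and 93 and 63 among the 2677 entries with at least 100 summed reads. With total counts without mitochondrially encoded genes, higher calls made up 67.4% of the called genes. From the most abundant transcript alone, Impdh1 made up 63.0% of its pair in the cold and 63.8% in the control library, the reductases 94.2% and 58.1% of the guanine branch, Gmpr 88.7% and 31.2% of the 10 genes, Gmps 72.8% and 63.6% of the GMP-making reads, and Ampd3 80.6% of its pair in the control library. From coding transcripts alone Ampd3 made up 88.9% and 83.9% of its pair in the cold and control libraries. The single and coding transcript alternatives use fewer reads by construction, total counts shift the scale, and the 1.5-fold setting lowers the threshold on the same reads. With 34 summed reads for Gmpr2 and Ampd2, differences under about 2.26-fold could not be seen. No paired analysis was possible because each condition had 1 library.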
